A study of Mus musculus with 2 samples.

Results

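The cells described here carry the name Monocyte (Patrolling) in the cell annotation that the authors deposited with 2 droplet-based single-cell libraries from the tibialis anterior of mice, a muscle of the shin. They were found by that name alone, and each annotated barcode was matched to the matrix of called cells of its own library. There were 186 such cells in the day 2 library and 136 in the day 7 library, which is 322 of the 6879 barcodes with a cell type. One library came from muscle taken 2 days after notexin and the other from muscle taken 7 days after it. Notexin is a snake venom toxin that destroys muscle fibres and sets off inflammation and repair. Both mice were C57Bl/6 by the sample labels, which also give both as female and 7 months old. The annotation, by contrast, gives both as male and the day 2 mouse as 4 months old, and it describes dissociated whole muscle from 1 mouse a library. Neither library came from uninjured muscle, so no baseline was measured, and the time point, the mouse and the library cannot be told apart. The cells are set against the 5 other monocyte and macrophage labels of the same annotation. These are inflammatory monocytes (276 cells at day 2 and 84 at day 7), Cxcl10+ monocytes (38 and 45), M1 macrophages (468 and 228), and M2 macrophages with low Cx3cr1 (242 and 105) and with high Cx3cr1 (82 and 160).

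Blood monocytes come in a classical and a patrolling form. Classical monocytes carry Ly6C and CCR2, leave the blood towards damaged tissue, and can become macrophages there. Patrolling monocytes crawl along the inside of small vessels, depend on the nuclear receptor NR4A1, need CSF1R signalling to survive, and carry CX3CR1, CD43 (Spn), LFA-1 (Itgal) and, in mice, angiotensin-converting enzyme (Ace) and TREML4. In injured muscle, recruited monocytes pass from an inflammatory to a repair-associated state as they clear dead fibres. The study itself describes its patrolling monocytes as high in Fabp5 and negative for Cx3cr1 and Ly6c2. That signature differs from the one of blood, where Cx3cr1 is high.

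The matrices held 41123913 UMIs in 4836 called cells at day 2 and 32356088 UMIs in 4889 called cells at day 7. A UMI, or unique molecular identifier, marks 1 captured RNA molecule, read at its 3′ end. The patrolling-labelled cells had a median of 14608 UMIs at day 2 (range 5083 to 33688) and 9297.5 at day 7 (range 2053 to 34139). At day 2 this was the deepest of the 6 monocyte and macrophage labels, with the others between 8968 and 13635.5, and at day 7 only the M1 macrophages were deeper, at 12528. Mitochondrial shares had medians of 4.48% and 4.68%. No barcode sequence was found among the patrolling-labelled cells of both libraries, while 4 called barcodes occurred in both.

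Because there was 1 library a time point, no test between conditions was possible. Levels are in CPM, a gene's UMI count summed over the cells of a label, divided by the label's total and multiplied by 1000000, and brackets hold exact 95% intervals. All intervals cover counting error only and say nothing of the spread between mice. A gene was compared if it had at least 50 counts in either sum, and it is called higher or lower where the whole interval of the ratio lay beyond 2-fold. The labels were assigned from expression of these same genes in these cells, so every comparison between labels is a description of what the label holds.

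The label did not match the known markers of patrolling monocytes. Of 12 such markers, 0 had their highest level in the patrolling-labelled cells among the 6 monocyte and macrophage labels, at either time. At day 2 they were lowest there for 3 markers and at day 7 for 7. The summed level of the 12 was 498 CPM at day 2, under all 5 other labels (631 to 1044 CPM), and 1431 CPM at day 7, again under all 5 (1816 to 2469 CPM). Ambient RNA, read from barcodes with 1 to 100 counts, gave 337 and 1298 CPM for the same list. Cd300e had 0 counts at both times and Pglyrp1 had 0 at day 7. Against the other labels together, 11 markers could be compared at day 2, where 0 were higher and Ace and Itgal were lower. At day 7, 8 could be compared and 0 were called in either direction.

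Csf1r, Nr4a1 and Ace, 3 of the 12 patrolling markers, did not set the label apart either. They were picked for this description, and the study's text describes the label by other genes. Csf1r, the receptor for macrophage colony-stimulating factor, was at 263 CPM at day 2 (245 to 283) and 648 at day 7 (607 to 691). The other labels ranged from 301 to 393 CPM in the day 2 library and from 580 to 1030 CPM in the day 7 library, so the patrolling-labelled cells were the lowest at day 2 and the next to lowest at day 7. Their Nr4a1 level was the lowest of the 6 labels at both times, at 137 CPM (124 to 152) and 246 CPM (221 to 273), with the other labels at 154 to 287 and 350 to 571 CPM. At day 2 its interval overlapped that of M1 macrophages, the next label (145 to 164). Ace gave 2 counts in each library, or 0.720 CPM (0.0872 to 2.60) and 1.40 CPM (0.169 to 5.04). Capillary endothelial cells, which use Ace, held 59.0 and 76.6 CPM.

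The other markers of blood patrolling monocytes were also scarce. Cx3cr1, the fractalkine receptor, was at 10.8 CPM at day 2 (7.29 to 15.4), in the middle of the labels, and at 200 CPM at day 7 (177 to 224), the lowest of the 6, where the others ran from 230 to 515 CPM. Treml4 was at 1.80 and 2.79 CPM, Spn at 3.96 and 11.2 CPM, and Itgal at 8.64 and 56.6 CPM. Itgal at day 2 stood at 43.7 CPM in the other labels together, a log2 ratio of −2.34 (−2.99 to −1.75). Fcgr4, the receptor that binds IgG on patrolling monocytes, was at 50.4 and 168 CPM, and Pou2f2, a transcription factor, at 11.9 and 79.6 CPM, each at rank 5 or 6 of the 6 labels.

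Of the markers of classical monocytes, Ly6c2, Ccr2 and Plac8 were low as well. Ly6c2 stood at 60.1 CPM at day 2 (51.3 to 70.0) and at 4.89 CPM at day 7 (1.97 to 10.1), against 506 and 108 CPM in the inflammatory monocytes. Ccr2 was at 203 CPM (186 to 220) and 53.1 CPM (41.8 to 66.4), the lowest of the 6 labels both times, and the inflammatory monocytes held 813 and 762 CPM. Plac8, an abundant transcript of classical monocytes, was at 153 CPM at day 2 and had 2 counts at day 7. The summed level of 9 classical markers was 4570 CPM at day 2, within the range of the other labels (3660 to 10598), and 185 CPM at day 7, below it (355 to 1712). Thbs1, which encodes thrombospondin 1, went the other way, at 3340 CPM at day 2, the second of the 6 labels, and at 83.8 CPM at day 7, the highest. Chil3 and Hp were the third of the 6 at day 7.

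Macrophage markers as a sum were high in these cells. Of 12 such markers, 7 were highest in the patrolling-labelled cells at day 2 and 6 at day 7, and their summed level was above that of all 5 other labels at both times. It was 19669 CPM at day 2, with the others at 8304 to 13338, and 78529 CPM at day 7, with the others at 27488 to 74927. Cd68, Trem2, Gpnmb, Mertk, Cd63 and Lgals3 were highest at both times. Trem2, a receptor for lipids and cell debris, was at 490 CPM (464 to 517) and 2154 CPM (2078 to 2231). Lgals3, which encodes the lectin galectin-3, was at 7678 and 7356 CPM. Apoe, the lipid carrier apolipoprotein E, was at 4538 CPM at day 2, the highest, and at 47226 CPM at day 7, the third of the 6. Mrc1, the mannose receptor, went the other way, at 429 CPM against 912 CPM in the other labels together at day 2, a log2 ratio of −1.09, and at 64.9 CPM at day 7, the lowest of the 6 labels. Adgre1 and the complement chains C1qa, C1qb and C1qc were the second of the 6 at day 2 and the fifth at day 7.

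**Figure D1:**
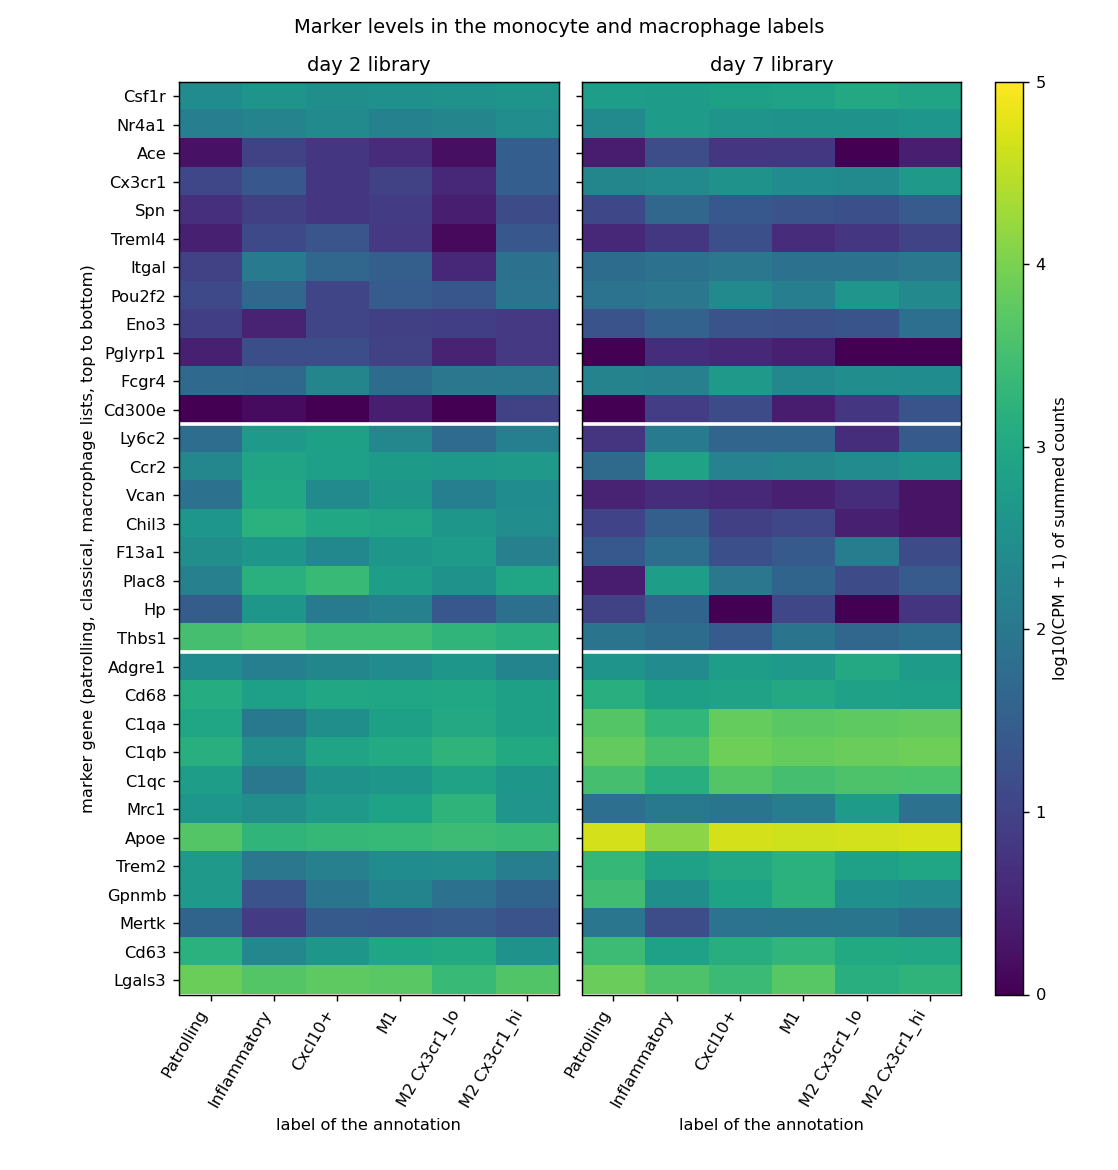
Heat map of log10(CPM + 1) for the patrolling, classical monocyte and macrophage markers (rows) in the 6 monocyte and macrophage labels (columns), with 1 panel a library. Brighter colours are higher levels, and the patrolling column is as dark as or darker than most others for the patrolling markers and brightest for Lgals3, Cd63, Trem2 and Gpnmb in both panels.

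Markers of other cell types were mostly at or near 0 or within the range of the other labels. At day 2, of 7 dendritic cell markers 5 had 0 counts in the patrolling-labelled cells, among them Flt3 and Zbtb46. At day 7 the summed level of that list was 510 CPM, above the 58.8 to 392 CPM of the other labels, of which Itgax, the integrin CD11c that macrophages also use, held 506 CPM, with Zbtb46, Cd209a and Ccr7 at 0. The neutrophil list summed to 78.5 and 74.7 CPM, within the other labels (61.1 to 162 and 67.6 to 98.4), and Ly6g was at 0 both times. The T or NK cell list summed to 1.44 and 1.40 CPM with Cd3e at 0, the B cell list to 3.60 and 26.5 CPM with Cd79a at 0, and the basophil or mast cell list to 0.360 and 0.698 CPM. Lists of fibro-adipogenic progenitors (227 and 366 CPM), endothelial cells (59.7 and 21.6 CPM), myogenic cells (0.360 and 21.6 CPM) and erythroid cells (5.76 and 4.89 CPM) were not above the highest other label. The share of free RNA in these values was not tested.

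Gpnmb, Spp1 and Fabp5 had their highest level of the 6 labels in the patrolling-labelled cells at both times. Gpnmb (ENSMUSG00000029816, chromosome 6, 49036546 to 49070929, plus strand, GRCm38) encodes a membrane protein of lysosomes and phagosomes. It was at 475 CPM at day 2 (450 to 502) and 2986 CPM at day 7 (2897 to 3077). The next label was M1 macrophages both times, at 183 and 1631 CPM. Against the 5 other labels together the log2 ratio was 2.04 (1.93 to 2.14) at day 2 and lay from 1.44 to 1.56 at day 7.

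Spp1 (ENSMUSG00000029304, chromosome 5, 104435118 to 104441050, plus strand) encodes osteopontin, a secreted matrix protein that binds integrins and CD44. Its level in the patrolling-labelled cells was 12111 CPM at day 2 and 12695 CPM at day 7. M1 macrophages were next, at 4135 and 6897 CPM, and the M2 macrophages with low Cx3cr1 were last, at 1423 and 374 CPM. The log2 ratio to the other labels together was 2.03 (2.01 to 2.05) and 1.61 (1.58 to 1.64).

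Fabp5 (ENSMUSG00000027533, chromosome 3, 10012548 to 10016607, plus strand) encodes a fatty acid binding protein. It was at 7197 CPM at day 2 and 3935 CPM at day 7, above all 5 other labels, which held 929 to 4326 and 367 to 1890 CPM. The log2 ratio was 1.16 (1.14 to 1.19) and 1.62 (1.57 to 1.67). Of the 3 genes in the study's description, Fabp5 was thus higher and Ly6c2 lower at both times (log2 ratio −1.96 and −3.05). Cx3cr1 was not called, at −0.04 (−0.65 to 0.53) and −0.66 (−0.85 to −0.48). That description was made on a collection that includes these libraries and is not independent of them.

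**Figure D2:**
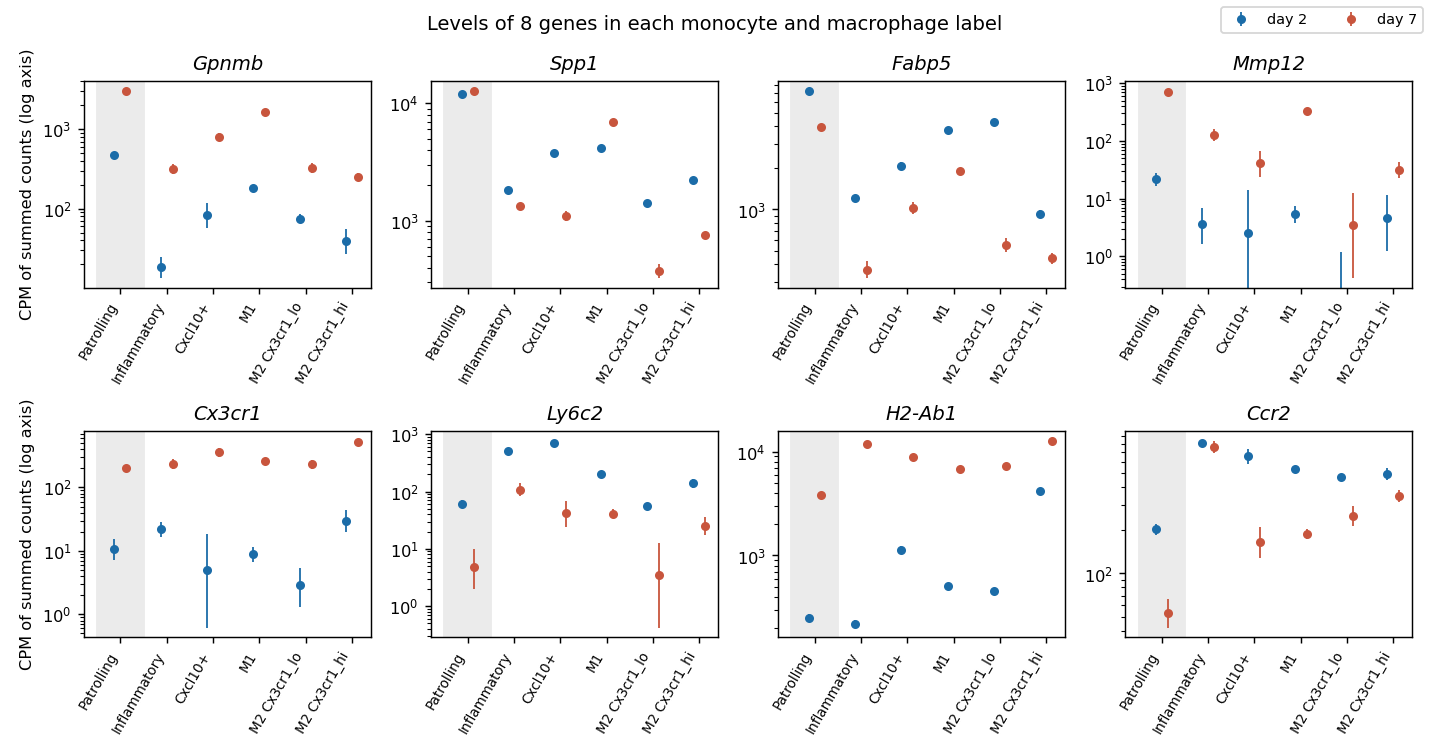
Levels in CPM on a log axis with exact 95% counting intervals (points and bars) of Gpnmb, Spp1, Fabp5, Mmp12, Cx3cr1, Ly6c2, H2-Ab1 and Ccr2 in the 6 labels, with day 2 in blue and day 7 in red. The patrolling label is highest for Gpnmb, Spp1, Fabp5 and Mmp12 and lowest for Ccr2 in both libraries, and Mmp12 in M2 macrophages with low Cx3cr1 is at 0 at day 2 and has no point.

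At day 2, 42 of the 8729 genes compared were higher in the patrolling-labelled cells than in the 5 other labels together (0.481%) and 122 were lower (1.40%). By the largest ratios among genes in at least 10% of cells, Ctsk, the collagen-cutting protease cathepsin K, came first, at 70.5 against 13.9 CPM (log2 2.34, 2.04 to 2.64). Syngr1, which encodes the vesicle protein synaptogyrin 1, was at 257 against 54.1 CPM (2.25, 2.10 to 2.40). Zranb3, Rnf128, Gpnmb, Angptl2, Spp1 and F7, which encodes coagulation factor VII, followed at 2.27 to 1.92. The lowest ratios were those of Cd163, the receptor for haemoglobin bound to haptoglobin, with 5 counts (1.80 against 60.1 CPM, −5.06), and of Ifitm6 and Tmem176b (−4.59 and −3.66). Elovl6, Gm9733, Dmkn and Pi16 made up the rest, at −3.87 to −3.36.

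At day 7, 22 of 7673 genes were higher (0.287%) and 50 were lower (0.652%). Tmem178 had the largest ratio, at 42.6 against 7.88 CPM (2.43, 1.86 to 3.01). Csf1, the ligand of CSF1R, was at 80.3 against 22.7 CPM (1.83, 1.46 to 2.19). Mmp12, macrophage elastase, was at 707 against 204 CPM (1.79, 1.67 to 1.91). Without cells that also held genes of other cell types its ratio was −0.11, so this value turned with the cells kept. That rule removed 79.4% of the patrolling-labelled cells of day 7. Under a rule without the genes that macrophages hold, added after seeing the data, the Mmp12 ratio did not reverse. Mamdc2, Dnmt3aos, Gem, Bhlhe41 and Fabp5 lay between 1.62 and 2.00. Plac8 had the lowest ratio, at 1.40 against 92.6 CPM (−6.05, −9.10 to −4.19, from 2 counts). Ly6a, Cxcl10, Ly6c2, Ccl5, Klra2, Adgre4 and Klrk1 ran from −3.94 to −2.81.

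6 genes were higher at both times, which is 14.3% of the 42 and 27.3% of the 22, where 36 of the 42 could be compared at day 7 and 19 of the 22 at day 2. They were Atp6v0d2, Fabp5, Gpnmb, Il7r, Mmp12 and Spp1, named here because the count was small. Atp6v0d2, a subunit of the proton pump that acidifies lysosomes, was at 37.4 CPM against 12.6 at day 2 and at 425 against 185 at day 7. Il7r, the interleukin-7 receptor, was at 181 against 66.3 CPM and at 161 against 66.3 CPM. 25 genes were lower at both times, or 20.5% of the 122 and 25 of the 50, where 82 of the 122 could be compared at day 7 and 42 of the 50 at day 2. They included Ccr2, Ly6c2, Plac8, H2-Ab1, H2-Eb1, Cxcl10, Il1b, Ly6a, Ifitm6 and Tmem176b.

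Taken label by label, the cells were nearest to M1 macrophages. From them 83 of 7463 genes differed past 2-fold at day 2 and 29 of 6056 at day 7, while 438 and 168 genes differed from inflammatory monocytes. Since larger sums give narrower intervals, all labels were also thinned to the same total, 394843 counts at day 2 and 386162 at day 7. At equal depth, M1 macrophages differed in 12 genes of 1374 at day 2 and in 2 of 1080 at day 7. The other 4 labels differed in 41 to 154 and in 74 to 106 genes.

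Inflammatory monocytes shared the name but stood far apart at day 2. Here 196 of 5747 genes were higher in the patrolling-labelled cells (3.41%) and 242 were lower (4.21%). Syngr1 was at 257 against 3.57 CPM (log2 6.17, 5.24 to 7.30). Ppbp, which encodes a platelet-type chemokine, was at 164 against 3.97 CPM (5.37), and its relative Pf4 at 5752 against 403 CPM (3.83). Igf1, insulin-like growth factor 1, had 129 counts against 0, which is at least 39.0-fold higher with the 0 taken as 3 counts and the 129 as exact, while the exact interval of the log2 ratio starts at 4.97. Atp6v0d2, Gpnmb, Cbr2, Zranb3 and Anpep lay between 4.38 and 5.56. Ifitm6 was at 5.04 against 315 CPM (−5.97), and Pi16 (−5.07), Lrg1, Dmkn, Gm9733, Elovl6 and Tmem176b (−4.65 to −4.09) were low too.

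Genes of lysosomes and of lipid handling were on the high side of the label. Of 21 lysosome and phagocytosis genes compared at day 2, 3 were higher, Gpnmb and Cd63 among them, and 1 was lower (Mrc1), with a median log2 ratio of 0.45, where the median of all genes was −0.04. At day 7, 2 of 21 were higher (Ctsd and Gpnmb) and 0 lower, with a median of 0.42 against −0.05. Against inflammatory monocytes 9 of 20 were higher, among them Ctsb, Ctsl, Lgmn, Mertk and Gas6, with a median of 0.93 against 0.04. Ctsd, the aspartic protease cathepsin D, stood at 5951 CPM at day 2 and 6734 at day 7, against 2935 and 2890 CPM in the other labels (log2 1.02, 0.99 to 1.05, and 1.22, 1.18 to 1.26).

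Lysosomal genes are often read out through an E-box with the letters CACGTG, the core of the site bound by the TFEB family, and the letters of the Ctsd and Gpnmb promoters are printed to show one promoter with it and one without. Both are 250 bases before the RefSeq start site on GRCm38.p6, given 5′ to 3′ on the strand of the gene, with the E-box in capitals. Ctsd lies on the minus strand at chr7:142387828-142388077 and Gpnmb on the plus strand at chr6:49036268-49036517.
Ctsd: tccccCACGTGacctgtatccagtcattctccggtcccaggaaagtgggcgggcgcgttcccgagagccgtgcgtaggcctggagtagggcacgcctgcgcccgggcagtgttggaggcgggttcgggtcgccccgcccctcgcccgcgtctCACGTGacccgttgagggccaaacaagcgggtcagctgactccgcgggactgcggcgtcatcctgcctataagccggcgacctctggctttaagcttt
Gpnmb: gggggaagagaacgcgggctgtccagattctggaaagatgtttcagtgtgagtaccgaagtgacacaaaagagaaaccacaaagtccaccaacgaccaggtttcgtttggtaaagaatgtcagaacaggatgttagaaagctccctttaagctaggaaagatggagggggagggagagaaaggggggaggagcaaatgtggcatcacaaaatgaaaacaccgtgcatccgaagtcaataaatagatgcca
The E-boxes of Ctsd begin 245 and 98 bases before the start. The same letters, which read alike on both strands, occur in 6.02% of the 32851 promoters of the table, and in 5 of the 23 promoters found for 20 genes of the lysosome list (Ctsa, Ctsd, Ctsl, Lamp1 and Lgmn). In the 18 promoters found for 12 genes of the lipid list they occur in 1 (Abca1), or 5.56%. The letters TCATGTG, the M-box, were searched on both strands and occur in 3.25% of all promoters, in 0 of the 23 and in 0 of the 18. A match of letters is not a bound site, and nothing in these data measured binding.

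Of the lipid genes, Fabp5 and Cd36 were higher at day 2 and 0 of 17 lower (median 0.78). At day 7 Fabp4, Fabp5 and Lpl were higher and 0 of 16 lower (median 0.70). Cd36, the scavenger receptor for oxidised lipids, was at 453 against 169 CPM at day 2 (1.42, 1.32 to 1.52) and 176 against 97.5 CPM at day 7 (0.85, 0.63 to 1.07). Lpl, lipoprotein lipase, was at 434 against 269 CPM and at 1267 against 555 CPM (0.69 and 1.19). Against inflammatory monocytes 10 of 16 lipid genes were higher, Plin2, Abca1 and Lipa among them (median 1.30).

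By abundance, ferritin, the store of iron, stood first at day 2, with Fth1 at 25180 CPM and Ftl1 at 17966 CPM, against 13734 and 10625 CPM in the other labels together. Apoe led at day 7. Of 12 haem and iron genes compared with inflammatory monocytes, 5 were higher (Blvrb, Fth1, Ftl1, Prdx1 and Gclm) and 0 lower, with a median of 0.92. In the same comparison 5 of 16 chemokine ligands were higher (Ccl7, Ccl8, Ccl12, Pf4 and Ppbp), as were 5 of 14 growth factors and repair mediators (Igf1, Gdf3, Gdf15, Spp1 and Grn) and the 3 chains of C1q. The inflammatory mediators Il1b, Il18, Clec4e and Trem1 were lower, of 14.

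MHC class II and interferon-stimulated genes were on the low side. Of 6 MHC class II genes compared at day 2, 5 were lower and 0 higher (median −1.40), and at day 7, 2 of 7 were lower (median −1.04). H2-Ab1, a class II chain, was at 252 against 694 CPM at day 2 (−1.46, −1.57 to −1.35) and 3807 against 8662 CPM at day 7 (−1.19, −1.23 to −1.15). Its level in inflammatory monocytes at day 2 was lower still, at 219 CPM.

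Among 19 interferon-stimulated genes 0 were higher at either time, while 5 were lower at day 2 (Ifit1, Isg20, Ifi47, Cxcl10 and Ly6a, median −1.12) and 3 at day 7 (Ifit1, Cxcl10 and Ly6a, median −1.04). Among the adhesion and migration genes 4 were lower at day 2, Itgal, Itga4 and Ccr2 among them, of 16 compared (median −0.40), and Ccr2 alone at day 7, of 15 (median −0.35). The integrin genes Itgam, Itgax, Itgb2 and Itgb1 of that list had their highest level of the 6 labels in the patrolling-labelled cells at day 7, at 191, 506, 425 and 183 CPM. At day 2 Itgam had its lowest level there and the other 3 were in the middle of the order, and at day 7 none of the 4 was past 2-fold against the other labels together. Itgal and Itga4 had their lowest level of the 6 there, at 56.6 and 71.9 CPM. Il1b, interleukin-1 beta, was lower at both times (344 against 864 CPM, −1.33, and 208 against 503 CPM, −1.27). It was 1 of 3 lower inflammatory mediators of 18 at day 2, with Lcn2 and Trem1, and the only one of 12 at day 7.

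Other lists held few calls, and over all genes compared 0.481% were higher and 1.40% lower at day 2, and 0.287% and 0.652% at day 7. Of 15 growth factors and repair mediators, Igf1 (46.4 against 13.1 CPM, 1.82) and Spp1 were higher at day 2 and Spp1 alone at day 7 (medians 0.61 and 0.25). Of the matrix proteases and their inhibitors, Mmp12 and Ctsk were higher and Serpinb2 lower of 13 compared at day 2, and Mmp12 and Plau higher of 10 at day 7 (medians 0.26 and 0.73). Of the haem and iron genes Gclm was higher and Cd163 lower of 13 at day 2, and Prdx1 higher of 12 at day 7 (medians 0.54 and 0.41).

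Cxcl10 was the single chemokine called at day 2, of 16, and Ccl5, Cxcl9 and Cxcl10 were lower at day 7, of 15. In the lists of monocyte transcription factors, glycolysis and cell cycle, 0 genes were called at either time, with medians from −0.26 to 0.15. Of 18 dissociation stress genes, 0 were called at day 2 (median −0.27) and Hspa1a, Hspa1b and Socs3 were lower at day 7 (median −0.36). Hspa1a, an inducible heat shock protein, was at 1272 CPM there against 3831 CPM in the other labels, and whether handling of the tissue differed was not tested.

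**Figure D3:**
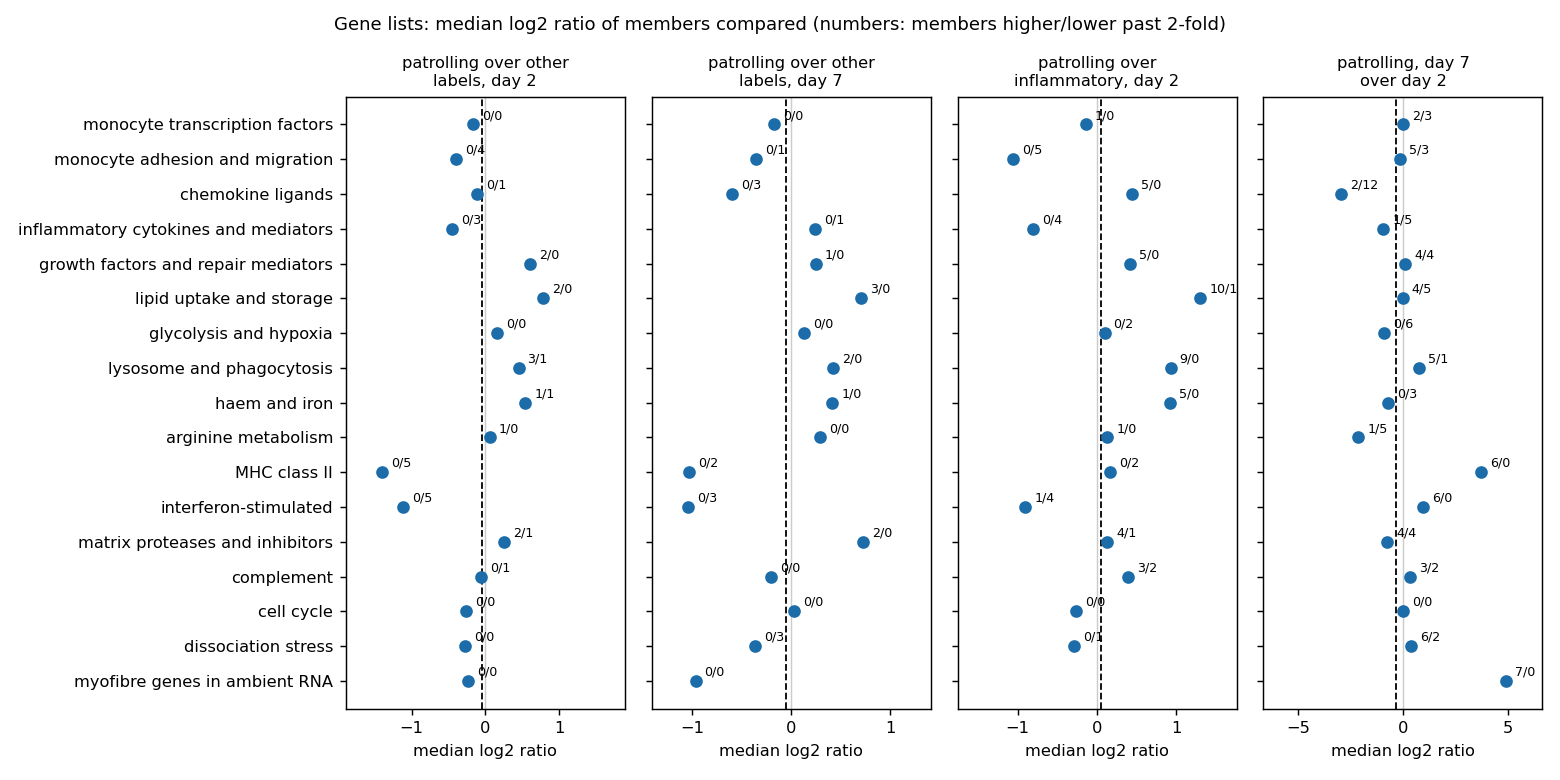
Median log2 ratio of the compared members of each gene list (points), in 4 comparisons (panels), with the median of all genes as a dashed line and the number of members higher/lower past 2-fold beside each point. The lipid and lysosome lists lie to the right of the dashed line in the 3 comparisons with other labels, and the MHC class II and interferon lists to its left at both times against the other labels together.

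The cells made up 5.32% of the annotated cells at day 2 (4.60 to 6.12) and 4.02% at day 7 (3.38 to 4.73), a difference of −1.31 percentage points (−2.33 to −0.29). Of the monocytes and macrophages they were 14.4% (186 of 1292, 12.5 to 16.4) and 17.9% (136 of 758, 15.3 to 20.9), a difference of 3.55 points (0.19 to 7.01). The direction turned with the denominator. Without possible doublets the first difference was −0.16 points (−0.76 to 0.42), which no longer leaves out 0, and the second was 9.82 (3.22 to 17.3), but that rule removed 83.9% and 79.4% of the patrolling-labelled cells. A rule added after seeing the data, without the genes that macrophages hold, gave −1.996 (−2.90 to −1.10) and 4.77 (0.59 to 9.30). With neutrophils, T, NK and B cells left out of the denominator the first was −3.07 points (−4.44 to −1.74). As a share of the monocytes and macrophages, inflammatory monocytes changed by −10.3 points and M2 macrophages with high Cx3cr1 by 14.8 points.

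Between day 2 and day 7 the patrolling-labelled cells changed in many genes. Of 5591 genes compared, 335 rose (5.99%) and 357 fell (6.39%), and the median of all genes was −0.34. Scaling by the median of ratios in place of the total moved every value up by 0.18 and gave 406 that rose and 263 that fell, and other choices moved this balance as well. Genes with any count gave 673 that rose and 385 that fell, and a minimum of 200 counts gave 140 and 256. In the other monocytes and macrophages together, from the same libraries, 815 of 9009 genes rose and 719 fell.

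Chemokines and classical monocyte genes fell. Of 16 chemokine ligands 12 fell and Ccl3 and Cxcl16 rose (median −2.98, and −2.35 in the other labels). Ccl7, a ligand of CCR2, fell from 2228 to 16.8 CPM (log2 −7.05, −7.70 to −6.48), beside −5.70 in the other labels. Ccl12 fell from 1047 to 18.2 CPM (−5.85), and Ccl2 from 3170 to 89.4 CPM (−5.15). Pf4 fell from 5752 to 578 CPM (−3.31), Cxcl3 gave 1 count at day 7, and Ppbp went from 457 counts to 0, which is at least 78.5-fold lower with the 0 taken as 3 counts and the 457 as exact, while the exact interval of the log2 ratio ends at −5.99.

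Plac8 (−6.77), Chil3 (−5.52), Ly6c2 (−3.62) and Ccr2 (−1.93, −2.30 to −1.59) fell, beside −3.09, −6.44, −2.53 and −1.04 in the other labels. Timp1, an inhibitor of matrix proteases, went from 545 counts to 1.

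The MHC class II genes of antigen presentation rose. All 6 MHC class II genes compared rose (median 3.73, and 3.64 in the other labels), H2-Ab1 from 252 to 3807 CPM (3.92, 3.80 to 4.03) and Cd74, the invariant chain, from 925 to 10818 CPM (3.55). C1qa rose from 905 to 4568 CPM (2.34), and of 7 complement genes compared 3 rose, C1qa, C1qb and C1qc, and C5ar1 (−2.62) and Cfp (−2.31) fell, with a median of 0.33. Apoe rose from 4538 to 47226 CPM (3.38). Of the interferon-stimulated genes 6 of 15 rose (median 0.95, and 1.20 in the other labels). Cx3cr1 rose from 10.8 to 200 CPM (4.21, 3.66 to 4.80), beside 4.83 in the other labels.

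The genes highest in the label did not all move together. Gpnmb rose from 475 to 2986 CPM (2.65, 2.56 to 2.74) and Mmp12 from 22.0 to 707 CPM (5.01, 4.64 to 5.41), while Spp1 was level at 12111 and 12695 CPM (0.07). Fabp5 was at 7197 and 3935 CPM (−0.87, −0.91 to −0.83), inside 2-fold, and Cd36 fell (−1.36, −1.56 to −1.17). The log2 ratios in the other labels together were 3.19 for Gpnmb, 5.81 for Mmp12 and 0.49 for Spp1. They were −1.33 for Fabp5 and −0.80 for Cd36. Of 21 lysosome genes 5 rose (Ctss, Hexa, Gpnmb and Axl among them) and Mrc1 fell, with a median of 0.76, and of 16 lipid genes 4 rose and 5 fell (median 0.00). Of 18 stress genes 6 rose, Jun, Atf3 and Hspa1a among them, and 2 fell, and of 16 glycolysis genes 6 fell, Gapdh (−1.87) and Hif1a among them.

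By the largest ratios, Lag3, which encodes an inhibitory receptor known from T cells, came first, at 1 count against 334 (log2 9.34, 6.85 to 14.7). Tmem176b (6.21), Ephx1 (6.13), Fam26f, Gpr34, H2-Q6 and Cd72 (6.53 to 5.63) followed. These genes rose in the other labels too, with log2 ratios of 8.16 for Lag3, 4.16 for Tmem176b and 5.01 for Ephx1. Fam26f, Gpr34, H2-Q6 and Cd72 stood there at 5.23, 6.14, 5.32 and 5.97. Myl1, a myosin light chain of muscle fibres, was also among the largest ratios, from 1.44 to 99.9 CPM (6.12). All 7 myofibre genes compared were higher at day 7 (median 4.94, and 5.39 in the other labels), except that Ckm, muscle creatine kinase, had a log2 ratio of −0.36 once free RNA was subtracted by SoupX. Acta1, skeletal actin, was at 3.24 and 135 CPM in the patrolling-labelled cells and at 107 and 6239 CPM in the ambient RNA.

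**Figure D4:**
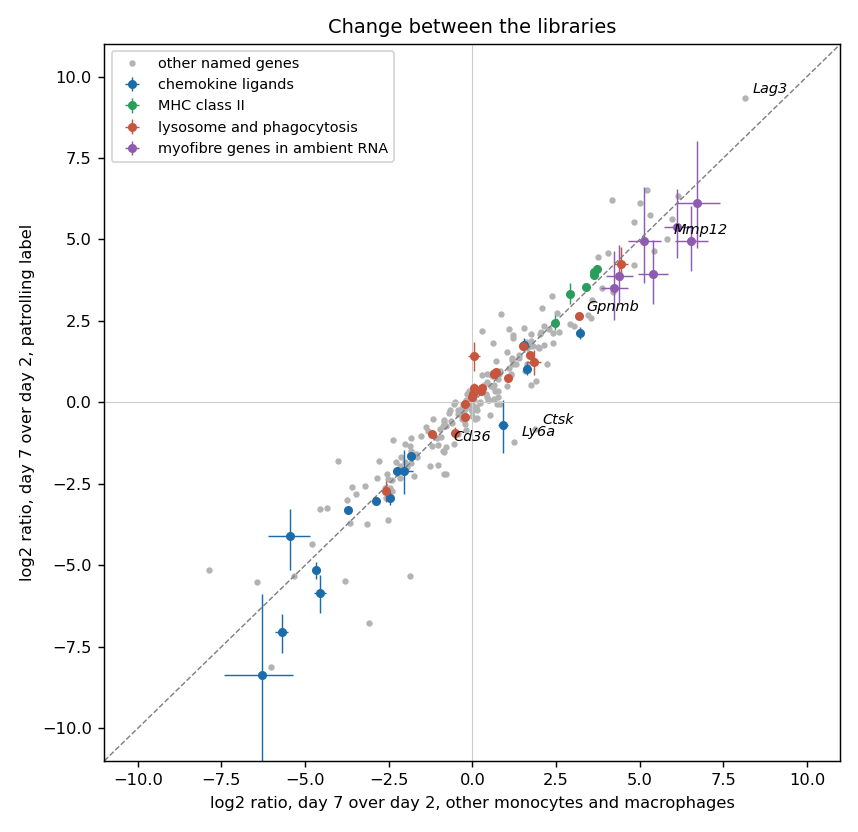
Log2 ratio of day 7 over day 2 for named genes in the other monocytes and macrophages (x axis) and in the patrolling-labelled cells (y axis), with exact 95% counting intervals for the coloured lists. Both axes are log2 ratios, the dashed line marks equal change, and the 2 axes use the same libraries. Chemokine ligands lie mostly at the lower left, MHC class II genes at the upper right, and Ctsk and Ly6a below the line.

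Single cells were compared after thinning each to 2000 UMIs, which left out 0 of the patrolling-labelled cells. Csf1r was then seen in 34.4% of them at day 2 (27.6 to 41.7) and 66.9% at day 7 (58.3 to 74.7), and in 93.5% and 95.6% unthinned. Capillary endothelial cells, which should lack it and had median depths of 6962 and 5444 UMIs, gave 1.29% and 0 of 149. Nr4a1 was seen in 18.3% and 30.9%, while endothelial cells gave 12.9% and 12.1%. Ace was seen in 0 of 186 and 0 of 136 cells, which allows shares of cells with an Ace UMI at that depth of up to 1.61% and 2.21% and does not limit the share that express it. Unthinned, 2 cells of each library held an Ace UMI. At least 1 of Ace, Spn and Treml4 was seen in 1.08% of cells at day 2 and 4.41% at day 7.

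The genes highest in the label were seen in different shares of its cells. Spp1 was seen in 88.7% and 83.8% of the thinned cells, Gpnmb in 38.7% and 86.0%, and Trem2 in 57.5% and 97.1%, while endothelial cells gave 9.68% and 2.68% for Spp1, 0 of 155 and 1.34% for Gpnmb, and 0.645% and 0 of 149 for Trem2. Unthinned, Gpnmb was seen in 67.2% and 94.9% of the patrolling-labelled cells. Both Gpnmb and Spp1 were seen in 36.0% of cells at day 2 and 73.5% at day 7. Fabp5 without Cx3cr1 or Ly6c2 was seen in 82.3% and 58.1%, but endothelial cells hold Fabp5 too, in 23.2% and 73.8% of cells.

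Spp1 varied most from cell to cell, with a variance of 57.5 times the mean at day 2 and 53.1 times at day 7. Its median was 10 UMIs of 2000 at day 2, with a highest cell of 188, and 5 at day 7, with a highest of 147. At day 2, Ccl8 (21.2 times, seen in 25.8% of cells), Gm42418, Fth1, Lyz2, Fabp5, Pf4, Cxcl2, Ccl2 and Hspa1a came next. At day 7, Gm42418, Apoe, Lyz2, Cd74, Malat1, Hspa1a, Lgals3, Hsp90aa1 and Mmp12 did. Mmp12 was seen in 22 of 136 cells at day 7, with a highest cell of 23 UMIs, and in 18.9% of M1 macrophages, so its UMIs lay in few cells.

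The share of cells with a UMI of classical monocyte genes was lower at day 7, and that of H2-Ab1 higher. At least 1 of Ly6c2, Plac8 and Chil3 was seen in 46.2% of cells at day 2 (38.9 to 53.7) and 2.94% at day 7 (0.81 to 7.36). H2-Ab1 was seen in 20.4% of cells at day 2 and 86.0% at day 7, and in 3.87% and 6.04% of endothelial cells. The list of patrolling markers without Csf1r summed to a median of 0 UMIs of 2000 at day 2, with 64.0% of cells at 0, and to 1 at day 7. The macrophage list summed to medians of 36 and 141 UMIs.

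**Figure D5:**
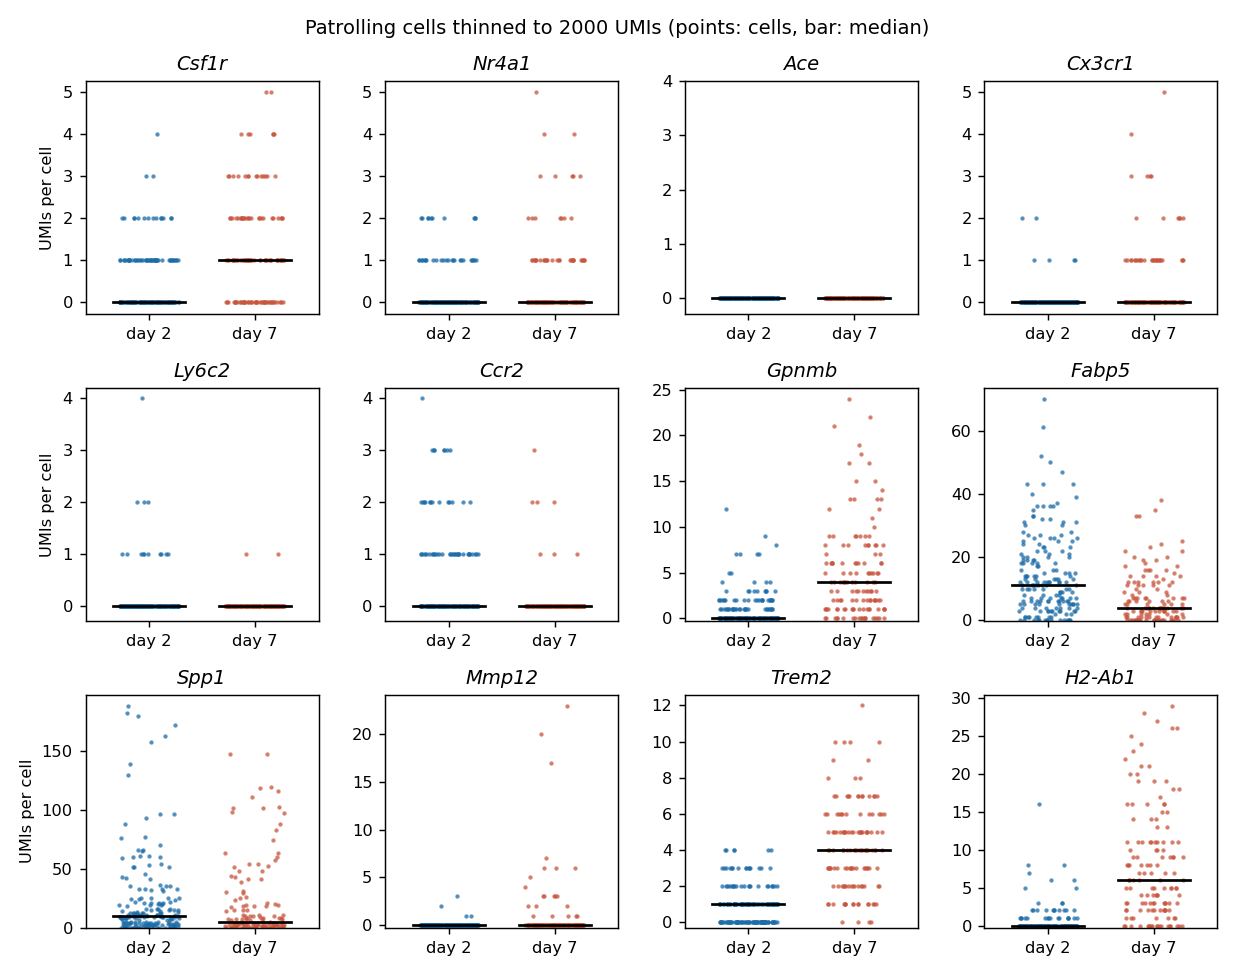
UMIs per cell after thinning to 2000 UMIs for 12 genes in the 186 patrolling-labelled cells of day 2 (blue) and the 136 of day 7 (red), with each point a cell and the bar the median. Ace is at 0 in every cell, H2-Ab1 and Trem2 have higher medians at day 7 than at day 2, and Spp1 reaches 188 UMIs.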

How the data were processed

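Both libraries were made with the 10x Genomics 3′ v3 kit and mapped to mm10. The main values are UMI counts, which the authors deposited as matrices of genes by barcodes, for all barcodes and for called cells. Submitters' processing notes name Cell Ranger 3.1.0 and Seurat 3.1.5, while the file headers name Cell Ranger 3.0.1. Estimated counts from which the authors had subtracted ambient RNA with SoupX were used only as an alternative. Per the study's methods, the authors kept cells with at least 750 genes, 1000 transcripts and at most 30% mitochondrial reads, removed doublets with DoubletFinder, and named clusters after integrating these libraries with many others. All patrolling-labelled cells met those limits in the counts used here. The annotation also holds cells outside them, 286 of 996 neutrophils at day 2 and 12 of 22 at day 7 among them, which were kept in the denominator, and no doublet caller was run here.

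Counts of called cells were summed per label and library (Python 3.11.15, numpy 2.4.6, scipy 1.17.1, pandas 2.3.3). Ratios have exact conditional binomial intervals, levels exact Poisson intervals, and shares exact Clopper-Pearson intervals, with a square-and-add interval for differences. Cells were thinned at random to 2000 UMIs without replacement. A count of 0 was bounded at 3 counts. The calling of genes was tested on simulated counts that held counting error alone, which is what the intervals assume. The spread between cells was not part of that test, so it does not show how the calls stand up to it.

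Named genes are the marker genes, the 2 most abundant and the extreme members of each list, the 8 largest and 8 smallest ratios per comparison (in at least 10% of cells of the higher group, counts under 3 taken as 3, without mitochondrial, ribosomal protein and haemoglobin genes), the 10 most abundant and the 10 most variable genes. Other list members past 2-fold were named after their values were seen. The members and the gene lists were chosen with earlier results of these data known. Gene positions are GENCODE vM21 and promoters RefSeq, both on GRCm38. The labels give no batch, and with 1 library a time point none could be separated. Some genes are not reported here.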

Additional observations from a re-analysis of the deposited data

Results flagged for a closer look

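Genes were looked at again where the summed level moved one way between day 2 and day 7 in the patrolling-labelled cells and the other way in the other monocytes and macrophages, each with an interval that left out 0. The difference was not tested, since there was 1 library a time point and both ratios use the same 2 libraries. 7 named genes met this. Ctsk had a log2 ratio of −0.83 (−1.28 to −0.39) in the patrolling-labelled cells and 1.87 in the others, a difference of −2.69. Ly6a, which encodes the interferon-inducible surface protein SCA-1, had −1.20 and 1.24, a difference of −2.44. The other differences were smaller: −0.61 for Isg15, −0.58 for Fth1, −0.39 for Aldoa, −0.26 for Ftl1 and 0.41 for Ifi204. Of these 7 genes, none was past 2-fold with its whole interval in the patrolling-labelled cells. With scaling by the median of ratios the patrolling values would stand 0.18 higher, which would put Ftl1, at −0.16, just above 0, with an interval (−0.18 to −0.14 before the shift) that reaches 0, and would move the interval of Aldoa (−0.38 to −0.11) across 0.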

How the results depend on the processing

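No paired analysis was possible because each time point had 1 library, and for the same reason no replicate could be left out. Another annotation column was to be tried and was not run, since no such column was used here. Choices called added were made after seeing the data. The change in the share of annotated cells (−1.31 points) was −0.16 (−0.76 to 0.42) without possible doublets and −3.07 with neutrophils, T, NK and B cells left out of the denominator. The change in the share of monocytes and macrophages (3.55 points) was 9.82 without possible doublets. That doublet rule used genes that macrophages themselves hold and removed 83.9% and 79.4% of the patrolling-labelled cells, and the added rule without those genes removed 23.1% and 48.5% and gave −1.996 (−2.90 to −1.10) and 4.77 (0.59 to 9.30). The counts of genes past 2-fold were 164 at day 2, 72 at day 7, 438 against inflammatory monocytes and 692 between the days. Without possible doublets the last 3 were 46, 211 and 193, and with the added rule the count between the days was 454. SoupX-corrected values, which carry no interval, gave 549, 339, 932 and 1500, and uncorrected counts without an interval (added) gave 545, 343, 926 and 1505. The mean over cells gave 682, 529, 966 and 1477, and 4-fold in place of 2-fold gave 21, 8, 107 and 200. A minimum of 200 counts gave 44, 229 and 396 for the last 3, and no minimum gave 1058 between the days. Of the genes between the days, 335 rose and 357 fell, against 479 and 1021 with SoupX-corrected values, 506 and 999 without an interval, 510 and 967 by the mean over cells, 125 and 75 past 4-fold, and 80 and 113 without possible doublets. Patrolling markers called were 2 at day 2 and 0 at day 7. Against single labels at day 2 they were 1 against Cxcl10+ monocytes, 1 against M1 macrophages and 0 against M2 macrophages with low Cx3cr1, and at day 7 they were 2 against Cxcl10+ monocytes and 1 and 3 against M2 macrophages with low and high Cx3cr1, all of them lower in the patrolling label. Among genes called past 2-fold, 2 single values reversed: Mmp12 at day 7 against the other labels was −0.11 without possible doublets, and Ckm between the days was −0.36 with SoupX-corrected values. Of the values for single genes under the alternatives, 897 stayed inside their counting interval, 343 moved outside it and 2 reversed. A change of sign was counted as reversed only for genes called past 2-fold. The 897 and 343 can therefore hold changes of sign in genes not called. Leaving out possible doublets moved 160 by more and 68 by less, the added rule 71 and 176, and SoupX-corrected values 4 and 249.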
